A study of Mus musculus with 9 samples.

Results

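The genes described here are the triggering receptors expressed on myeloid cells (TREM receptors) Trem1, Trem2, Trem3, Treml2 and Treml4, and Tyrobp. Tyrobp is the gene of DAP12, the signalling adaptor of some of these receptors. The genes were taken by symbol from the transcript tables of 9 RNA sequencing libraries, and all 6 were found among 22376 gene symbols. The cells were mouse bone-marrow-derived macrophages: marrow of wild-type C57Bl/6 mice, grown for 1 week with 10 ng/ml recombinant macrophage colony-stimulating factor (M-CSF), washed free of it and plated at 50000 cells for 48 h. Libraries 1 to 3 came from wells with a PD-L1-binding antibody at 100 µg/ml, libraries 4 to 6 from wells with an irrelevant antibody of matched isotype at 100 µg/ml, and libraries 7 to 9 from untreated wells. PD-L1 is the surface protein through which cells engage PD-1 on T cells. Separate animals or cultures behind the wells of a group are not stated in the labels. The p-values therefore reflect sample-to-sample spread alone, and that spread may be technical.

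TREM receptors are single-pass membrane proteins of the immunoglobulin superfamily, most of them with short tails that cannot signal alone. Trem1, Trem2 and Trem3 proteins pair in the membrane with DAP12, whose tail carries an immunoreceptor tyrosine-based activation motif (ITAM) that recruits the kinase Syk once phosphorylated. In macrophages TREM1 is known for amplifying inflammatory cytokine release, and TREM2 for sensing lipids and dying cells and for restraining inflammatory output.

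With the PD-L1 antibody, Trem1, Trem3, Treml2 and Treml4 rose and Trem2 and Tyrobp fell, against isotype antibody and against untreated wells alike. Mean levels of the 4 rising receptors were 1.998 to 3.674 times those with isotype antibody, that of Trem2 was 0.318 times and that of Tyrobp 0.764 times. All 6 genes passed limma's test with Benjamini-Hochberg adjustment over 13741 genes at an adjusted p under 0.05, where 36.4% of all genes passed (18.2% higher and 18.2% lower), and in all 6 the antibody groups did not overlap, as in 52.1% of all genes. Against untreated wells all 6 passed too, where 42.4% of all genes passed (22.0% higher and 20.5% lower), and none overlapped, as in 51.2% of all genes. These comparisons share the PD-L1 antibody libraries, so the second is not independent of the first. Between isotype antibody and untreated wells limma called 0 of the 6 genes, against 0.00728% of all genes. Unadjusted, 0 of the 6 had a limma p under 0.05, against 1748 of 13741 genes. In that comparison Treml2, Trem1, Trem3 and Treml4 gave log2 fold changes of 0.49, 0.41, 0.36 and 0.31 (unadjusted limma p from 0.0582 to 0.129). There the groups of all 6 genes overlapped, whereas those of 13.2% of all genes did not.

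Values are CPM: exonic reads, estimated from coverage, per 1e+06 of a library's total times its scaling factor (TMM). Log2 fold changes refer to log2(CPM + 1), so those of low genes come out smaller than the true change. Library totals ran from 23554320 exonic read equivalents (untreated 7) to 40116467 (untreated 9), and PD-L1 antibody 2 was read in lane 4 of the flow cell while the others were read in lane 1. The fewest read equivalents behind a CPM value of a member were 29.8, for Treml4 in untreated 8, and all 6 genes passed the filter on low values. The cells carried all 9 macrophage markers in every library. The defining markers of NK cells stayed under 1 CPM in every library, as did Cd3d, Cd3e and Cd3g of T cells. The remaining T cell markers passed 1 CPM, with Cd8a up to 3.82 CPM (isotype antibody) and Lck up to 1.24 CPM (untreated). In bulk RNA, fewer cells of a type and less RNA per cell cannot be told apart.

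The 5 receptor genes lie in one cluster on the plus strand of mouse chromosome 17. Positions in the files matched build GRCm38, in which Trem1 (48232739 to 48246924), Trem3 (48247729 to 48258847), Treml4 (48264295 to 48275358), Treml2 (48300038 to 48312534) and Trem2 (48346401 to 48352276) follow in that order. B430306N03Rik, for which RefSeq lists the synonym Treml6, sits between Treml2 and Trem2, and Treml1 closes the row, 134.4 kb from the start of Trem1. Only 804 bases separate Trem1 from Trem3. Tyrobp lies apart on chromosome 7 (30413788 to 30417579, plus strand), 132 bases from Hcst on the other strand. No exon of the 6 genes overlapped an exon of another gene in GENCODE M21.

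Promoters are shown for the members found in the RefSeq promoter table (GRCm38.p6), since Trem1 and Treml4 moved opposite to Trem2 from within one cluster. Trem3, Treml2 and Tyrobp were not matched. Each runs from 250 bases before to 50 bases after the gene start. They lie on the plus strand at chr17:48232489-48232788 (Trem1), chr17:48346151-48346450 (Trem2) and chr17:48264045-48264344 (Treml4). Capitals mark every match, on either strand, to 5 short motifs, none of which overlapped another here.
Trem1 promoter: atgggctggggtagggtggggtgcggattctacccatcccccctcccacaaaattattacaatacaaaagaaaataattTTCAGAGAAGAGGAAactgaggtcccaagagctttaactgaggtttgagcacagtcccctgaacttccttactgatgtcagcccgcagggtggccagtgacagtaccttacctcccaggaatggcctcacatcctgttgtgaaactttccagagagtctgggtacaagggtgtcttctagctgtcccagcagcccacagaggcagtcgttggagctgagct
Trem2 promoter: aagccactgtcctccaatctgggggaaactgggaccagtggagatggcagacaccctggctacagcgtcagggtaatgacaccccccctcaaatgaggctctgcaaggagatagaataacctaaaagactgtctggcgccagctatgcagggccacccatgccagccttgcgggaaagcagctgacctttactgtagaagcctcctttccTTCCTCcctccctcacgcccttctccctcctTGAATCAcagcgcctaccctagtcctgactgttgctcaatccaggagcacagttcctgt
Treml4 promoter: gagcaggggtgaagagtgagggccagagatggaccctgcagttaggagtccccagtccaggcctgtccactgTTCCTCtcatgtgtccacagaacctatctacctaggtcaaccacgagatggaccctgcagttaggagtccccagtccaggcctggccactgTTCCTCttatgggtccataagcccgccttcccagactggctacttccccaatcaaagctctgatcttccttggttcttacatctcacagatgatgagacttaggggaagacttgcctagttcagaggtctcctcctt

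The motif GAGGAA of PU.1, a transcription factor of myeloid cells, occurred once in the Trem1 window, once in the Trem2 window and at 2 places in the Treml4 window. It occurred in 28.28% of all 32851 promoters in the table. The AP-1 motif TGANTCA was found in the Trem2 window only (7.808% of all promoters), and the STAT motif TTCNNNGAA in the Trem1 window only, directly before the PU.1 match (8.298%). The NF-kB motif, GGGA, NN and TTCC in a row (1.467%), and the interferon response core, GAAA, NN and GAAA in a row (3.443%), had no match in the 3 windows. These matches describe letters in the windows shown.

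**Figure D1:**
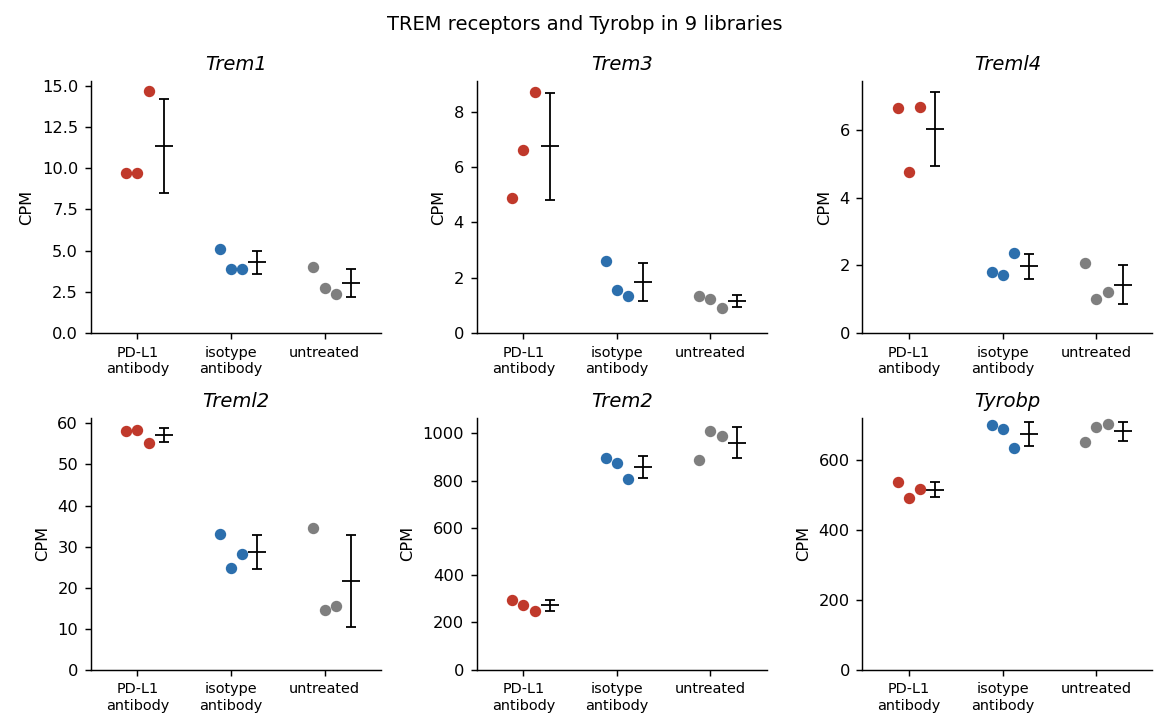
CPM (y axis, from 0) of the 6 genes in each of the 9 libraries, by group (x axis); points are libraries in order of their number, and black marks are mean ± SD (n = 3). The PD-L1 antibody points lie above all others for Trem1, Trem3, Treml4 and Treml2 and below all others for Trem2 and Tyrobp; untreated 7 stands at 34.5 CPM of Treml2 against 14.5 and 15.6 CPM in untreated 8 and 9.

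Trem1, the activating receptor of neutrophils, monocytes and macrophages, stood at 9.72, 9.71 and 14.7 CPM in the PD-L1 antibody libraries, at 5.08, 3.88 and 3.91 CPM with isotype antibody and at 3.99, 2.75 and 2.34 CPM in untreated wells. Every PD-L1 antibody library was above every other library, with PD-L1 antibody 3 the highest. The log2 fold change was 1.21 against isotype antibody (SE 0.19, limma with Benjamini-Hochberg adjusted p = 0.000579) and 1.62 against untreated wells (SE 0.19, limma adjusted p = 6.89e-05). On the log2(CPM + 5) scale these were 0.81 and 1.02, and both passed. Between isotype antibody and untreated wells the log2 fold change was 0.41 (limma adjusted p = 0.403).

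Trem3 encodes a mouse DAP12-coupled receptor whose human counterpart is a pseudogene. It reached 4.89, 6.64 and 8.73 CPM in PD-L1 antibody libraries, 2.62, 1.56 and 1.34 CPM with isotype antibody, and 1.35, 1.25 and 0.924 CPM in untreated wells. Every PD-L1 antibody library was above the other 6, of which isotype 4 was the highest. Its log2 fold change of 1.45 against isotype antibody (SE 0.21, limma adjusted p = 0.000297) went with one of 1.81 against untreated wells (SE 0.21, limma adjusted p = 5.47e-05), the largest rises among the 6 genes in this fit. On the log2(CPM + 5) scale these values were 0.77 and 0.92, and both passed limma's test.

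Treml4, a TREM-like receptor reported on mouse myeloid cells to bind dying cells, was at 6.68, 4.77 and 6.69 CPM in PD-L1 antibody libraries. It was at 1.81, 1.72 and 2.38 CPM with isotype antibody and at 2.09, 1.00 and 1.21 CPM in untreated wells. All PD-L1 antibody values were above the rest, and PD-L1 antibody 2 was the lowest of them. The log2 fold changes were 1.24 (SE 0.19, limma adjusted p = 0.000401) against isotype antibody and 1.55 (SE 0.19, limma adjusted p = 7.56e-05) against untreated wells. On the log2(CPM + 5) scale they were 0.66 and 0.78, and both passed.

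Treml2 encodes TLT-2, a TREM-like receptor of B cells and myeloid cells that is not known to pair with DAP12. Its values with the PD-L1 antibody lay close together at 58.1, 58.3 and 55.2 CPM, against 33.0, 24.8 and 28.1 CPM with isotype antibody. Untreated wells split, with 34.5 CPM in untreated 7 and 14.5 and 15.6 CPM in untreated 8 and 9. The log2 fold change was 0.98 against isotype antibody (SE 0.25, limma adjusted p = 0.0102) and 1.48 against untreated wells (SE 0.25, limma adjusted p = 0.000781). Against untreated wells, isotype antibody gave 0.49 (limma adjusted p = 0.427). Without untreated 7 that last value became 0.88 and passed (limma adjusted p = 0.00129), so 1 library decided whether Treml2 was called with isotype antibody.

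Trem2, the lipid-sensing receptor, was by far the most abundant receptor. It had 296, 273 and 249 CPM in PD-L1 antibody libraries, against 895, 873 and 808 CPM with isotype antibody and 886, 1009 and 989 CPM in untreated wells. The groups were far apart: the highest PD-L1 antibody library was below the lowest of the other 6. The log2 fold change was -1.65 against isotype antibody (SE 0.095, limma adjusted p = 3.79e-07) and -1.81 against untreated wells (SE 0.095, limma adjusted p = 1.79e-07). Isotype antibody differed from untreated wells by -0.16 (limma adjusted p = 0.479).

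Tyrobp, the adaptor gene, moved least. It was at 537, 493 and 517 CPM with the PD-L1 antibody, at 700, 690 and 636 CPM with isotype antibody and at 651, 694 and 703 CPM in untreated wells. The PD-L1 antibody libraries were the lowest of the 9. Tyrobp fell by 0.39 on the log2 scale against isotype antibody (SE 0.082, limma adjusted p = 0.00355) and by 0.40 against untreated wells (SE 0.082, limma adjusted p = 0.00243). Isotype antibody minus untreated gave -0.02 (limma adjusted p = 0.948).

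The stretch of Tyrobp that encodes the ITAM is shown because all DAP12-coupled members signal through it. The coding sequence has 114 codons, in which a script found 1 pair of tyrosine codons in the ITAM spacing, at codons 92 and 103 counted from the start codon. The stretch comes from GRCm38 with GENCODE M21, plus strand, chr7:30415664-30417388, with an intron removed. Capitals mark the 2 tyrosine codons and the leucine codon 3 codons after each.
Tyrobp ITAM-coding stretch: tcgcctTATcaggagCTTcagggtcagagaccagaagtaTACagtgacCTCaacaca

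Leaving out PD-L1 antibody 2, so that all libraries came from lane 1, kept all 6 directions and calls against isotype antibody. The log2 fold changes were then 1.30 for Trem1, 1.44 for Trem3, 1.38 for Treml4, 0.97 for Treml2, -1.66 for Trem2 and -0.36 for Tyrobp. Their limma adjusted p-values were 0.00185, 0.00205, 0.00072, 0.036, 8.85e-06 and 0.0208 in the same order. With only 1 library, lane 4 gives no comparison of its own.

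**Figure D2:**
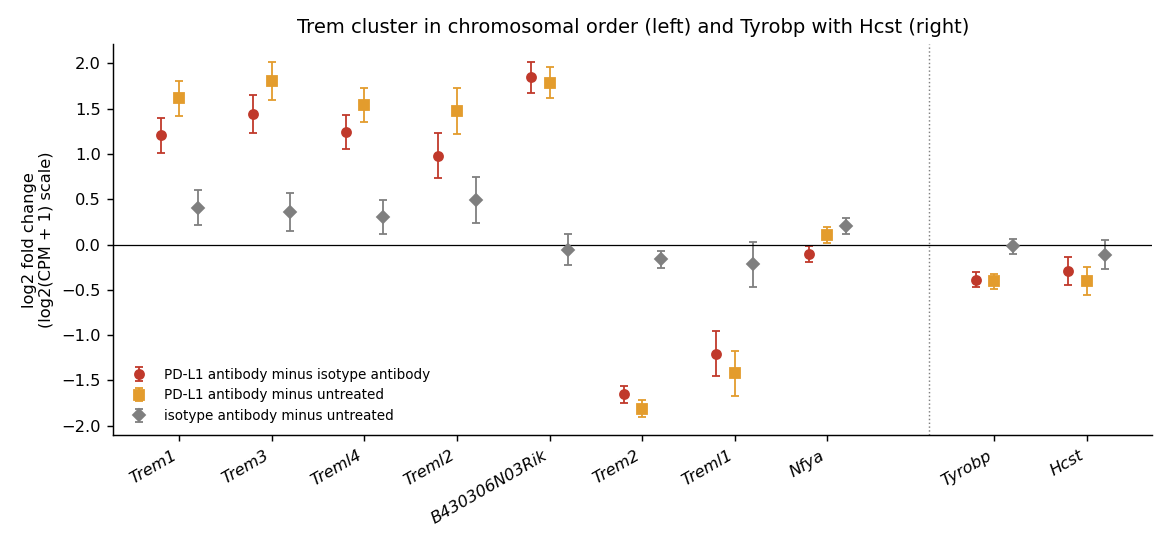
Log2 fold change (y axis, log2(CPM + 1) scale, bars ± SE from limma) for the chromosome 17 cluster in chromosomal order and, right of the dotted line, for Tyrobp and Hcst. Both PD-L1 antibody comparisons are above 0 from Trem1 to B430306N03Rik and below 0 for Trem2 and Treml1, and isotype antibody minus untreated stays between -0.22 and 0.49.

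Along the cluster the direction turned between B430306N03Rik and Trem2. B430306N03Rik was at 83.8 ± 9.91 CPM with the PD-L1 antibody, 22.9 ± 5.73 CPM with isotype antibody and 23.6 ± 3.44 CPM in untreated wells (SD, n = 3 each). It rose by 1.85 against isotype antibody (limma adjusted p = 1.19e-05). Treml1 encodes TLT-1, a receptor known from platelet granules, and fell along with Trem2, its neighbour. It averaged 2.33 ± 1.28 CPM with the PD-L1 antibody, 6.30 ± 0.647 CPM with isotype antibody and 7.54 ± 1.43 CPM in untreated wells (log2 fold changes -1.20 and -1.42, limma adjusted p = 0.00277 and 0.000839). The platelet and megakaryocyte markers, a list that holds Treml1, summed to 271 to 412 CPM, 95.0 to 142 CPM and 167 to 199 CPM in these groups. Pf4 made up most of that sum, at 245 to 366 CPM, 47.9 to 71.2 CPM and 66.4 to 113 CPM. The platelet glycoprotein genes Gp9 and Gp1bb instead lay lower in every PD-L1 antibody library (0.435 to 0.648 CPM and 1.07 to 1.51 CPM) than in any isotype antibody library (1.75 to 2.94 CPM and 2.76 to 6.07 CPM), as Treml1 did. Ranges of Ppbp and Itga2b overlapped between the antibodies. All 6 markers were listed above 0. Their part in the Treml1 values was not tested.

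Genes beyond the cluster did not all follow it. Nfya, which encodes a subunit of the CCAAT-binding factor and lies downstream on the other strand, was at 101 ± 7.42 CPM with the PD-L1 antibody, 109 ± 4.37 CPM with isotype antibody and 94.2 ± 9.80 CPM in untreated wells (limma adjusted p = 0.411 and 0.378). A530064D06Rik, 65481 bases before Trem1, rose by 2.35 against isotype antibody (16.3 ± 4.62 CPM against 2.39 ± 0.873 CPM, limma adjusted p = 2.38e-05). Hcst, which encodes the related adaptor DAP10, was low, averaging 3.99 ± 0.534 CPM with the PD-L1 antibody, 5.17 ± 1.22 CPM with isotype antibody and 5.59 ± 0.391 CPM in untreated wells, and passed neither comparison (limma adjusted p = 0.176 and 0.059). Lrfn3, on the far side of Tyrobp, stayed under 1 CPM in every library.

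To compare levels between genes, CPM was divided by exon length in kb. In every group the order was Tyrobp, then Trem2, then Treml2, and these levels did not overlap. With the PD-L1 antibody they averaged 911, 238 and 12.7 CPM per kb, with isotype antibody 1193, 749 and 6.35 CPM per kb, and in untreated wells 1207, 839 and 4.77 CPM per kb. Trem3, Trem1 and Treml4 followed at 6.44, 3.76 and 3.46 CPM per kb with the PD-L1 antibody, at 1.75, 1.42 and 1.13 CPM per kb with isotype antibody and at 1.12, 1.00 and 0.822 CPM per kb in untreated wells. In each group the ranges of Trem3 and Trem1 overlapped, and so did those of Trem1 and Treml4.

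Trem2 made up 91.3, 90.4 and 88.1% of the 5 receptors' summed level per kb with the PD-L1 antibody. It made up 98.4, 98.8 and 98.6% with isotype antibody and 98.5, 99.3 and 99.3% in untreated wells. The other 4 receptors together therefore took 8.69 to 11.9% with the PD-L1 antibody, 1.20 to 1.58% with isotype antibody and 0.664 to 1.46% in untreated wells. The PD-L1 antibody group did not overlap either of the others. A two-sided exact permutation test gave p = 0.1 for each, the smallest p that 3 libraries against 3 can give (0.133 after Benjamini-Hochberg adjustment over 12 tests of ratios). Isotype antibody and untreated wells overlapped (exact permutation p = 0.3).

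The 5 receptors summed to 264 ± 18.3 CPM per kb with the PD-L1 antibody, 759.8 ± 40.4 CPM per kb with isotype antibody and 846.5 ± 54.7 CPM per kb in untreated wells (SD, n = 3 each). The 4 receptors other than Trem2 went the other way, with 26.4 ± 2.53, 10.7 ± 1.70 and 7.72 ± 3.23 CPM per kb in these groups. Tyrobp therefore outnumbered the receptors by a ratio of 3.35, 3.31 and 3.70 per kb in PD-L1 antibody libraries, against 1.56, 1.58 and 1.57 with isotype antibody and 1.47, 1.38 and 1.43 in untreated wells. No 2 groups overlapped in this ratio, and each of the 3 comparisons had an exact permutation p = 0.1. The ratio of Trem2 to Trem1 per kb was 66.5 ± 19.0 with the PD-L1 antibody, 535 ± 65.1 with isotype antibody and 890 ± 274 in untreated wells. These ratios restate the values of the single genes, and they are ratios of RNA and not of protein. The receptor sum under Tyrobp includes Treml2, which is not known to pair with DAP12.

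**Figure D3:**
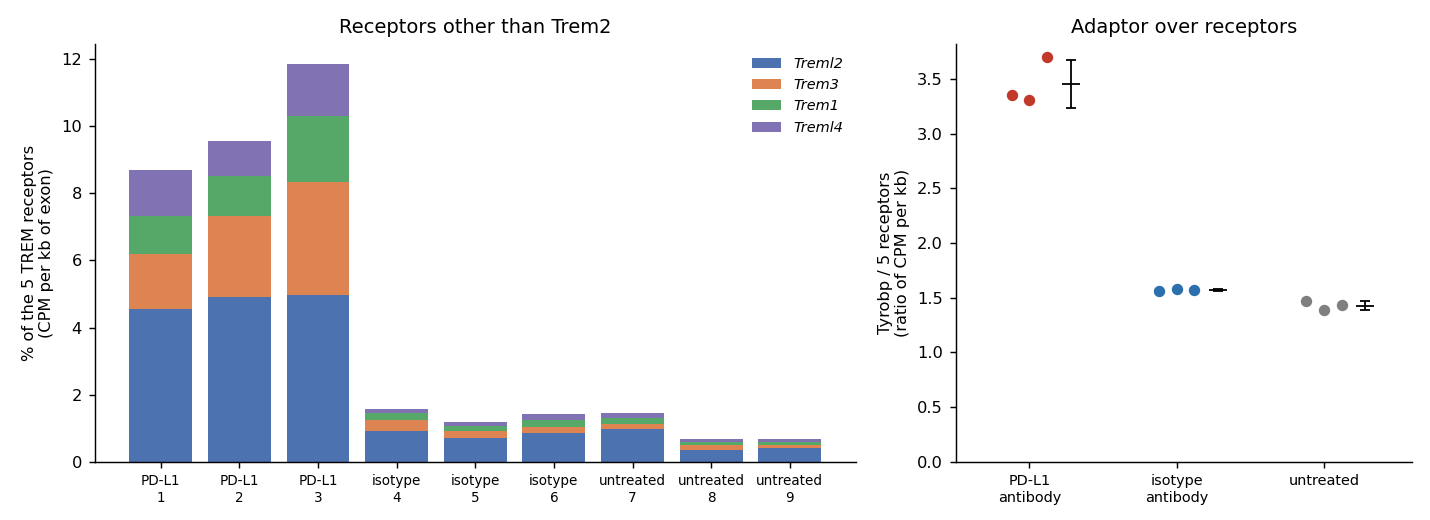
Left: share (y axis, % of the summed CPM per kb of the 5 receptors, from 0) taken by the 4 receptors other than Trem2 in each library (x axis); Trem2 fills the remainder. Right: Tyrobp divided by the 5 receptors (ratio of CPM per kb), points for libraries and mean ± SD (n = 3); the PD-L1 antibody libraries lie at 3.31 to 3.70 and the other 6 at 1.38 to 1.58.

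For Trem1 and Trem2 the files list 2 transcripts each that share 1 span, so the coverage of the stretch that differs could be had by subtraction. In Trem2 the stretch is a 55-base extension of exon 4 at its upstream end, shown with 20 bases on each side because it is the only part by which the listed transcripts differ. It lies on the plus strand at chr17:48351691-48351745 (GRCm38), and capitals mark the extension.
Trem2 alternative stretch: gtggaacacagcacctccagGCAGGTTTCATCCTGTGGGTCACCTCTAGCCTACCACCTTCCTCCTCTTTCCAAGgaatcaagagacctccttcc

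Its coverage was low, at 5.78, 5.77 and 5.44% of that of the rest of the transcript with the PD-L1 antibody, 3.90, 4.99 and 5.04% with isotype antibody and 4.09, 4.30 and 4.65% in untreated wells. The PD-L1 antibody libraries were the highest, by a small margin (exact permutation p = 0.1 against either group, 0.133 after adjustment over 12 tests). In Trem1 the stretch is exon 2 (48236998 to 48237354, 357 bases), which the shorter transcript skips. Exon 2 had 185, 144.5 and 194% of the coverage of the rest of the transcript with the PD-L1 antibody. It had 115, 142 and 138.5% with isotype antibody and 134, 111 and 64.8% in untreated wells. These groups did not overlap with the PD-L1 antibody either, though PD-L1 antibody 2 was close to isotype 5 (exact permutation p = 0.1 for each, 0.133 after adjustment). In all libraries but untreated 9, exon 2 was covered more deeply than the rest of Trem1. Exon 2 coverage ran only from 3.17 reads per base in untreated 9 to 30.7 in PD-L1 antibody 3. The exon 2 percentages therefore rest on few reads, fewest in untreated 9. Reads of unspliced RNA and of a transcript that retains the stretch cannot be told apart.

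**Figure D4:**
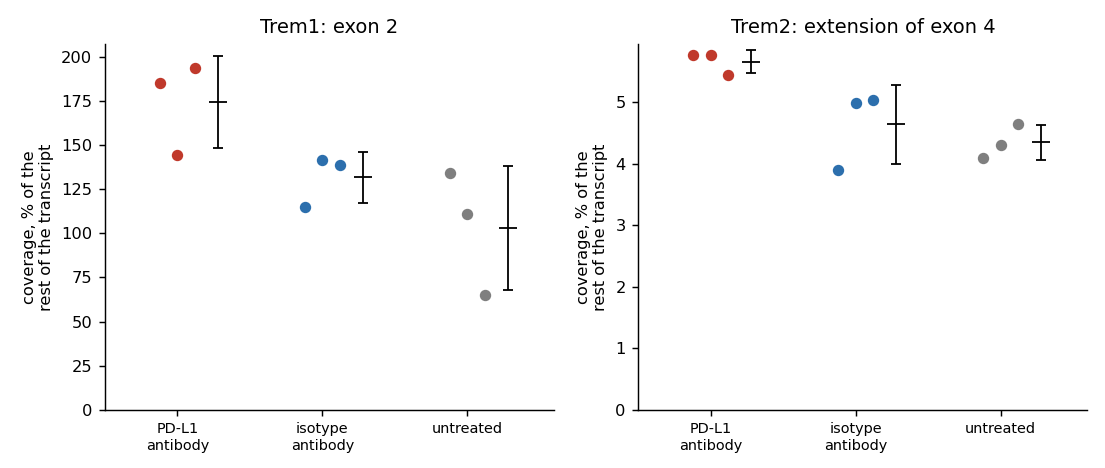
Coverage of the differing stretch (y axis, % of the coverage of the rest of the transcript, from 0) in each library by group, with mean ± SD (n = 3). The means are 174, 132 and 103% for Trem1 exon 2 and 5.66, 4.64 and 4.35% for the Trem2 extension, in the order PD-L1 antibody, isotype antibody, untreated.

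Other receptors listed as associated with DAP12 moved in both directions. Of 12 tested, 6 rose and 4 fell against isotype antibody (median log2 fold change 0.35, against -0.01 over all genes). Against untreated wells 6 rose and 3 fell (median 0.47). Over all genes, 18.2% were called higher and 18.2% lower against isotype antibody, and 22.0% and 20.5% against untreated wells. These shares belong beside the counts of each of the 7 lists. Pilrb1, an activating paired immunoglobulin-like receptor, averaged 31.4 ± 4.96 CPM under PD-L1 antibody and 7.53 ± 0.671 CPM under isotype antibody (log2 fold change 1.92). Sirpb1a and Sirpb1b, activating signal regulatory proteins, rose by 1.97 and 1.71. Cd300lb, an activating receptor for phospholipids, fell to 110 ± 10.9 CPM with the PD-L1 antibody, against 249 ± 1.15 CPM with isotype antibody (log2 fold change -1.18). The other falls against isotype antibody were in low genes. Siglech, Klrk1 and Klrd1 averaged 1.81, 3.94 and 0.431 CPM with the PD-L1 antibody, against 7.62, 7.14 and 1.61 CPM with isotype antibody. Sirpb1a and Sirpb1b, and Pilrb1 and Pilrb2, are near-identical copies that can share reads, so each is uncertain on its own. Pilrb1, Sirpb1a, Sirpb1b and Cd300lb passed in both PD-L1 antibody comparisons (limma adjusted p at most 3.78e-05).

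Of 30 genes listed as adaptors and kinases downstream of DAP12, 11 rose and 6 fell against isotype antibody (median 0.01). Against untreated wells 13 rose and 5 fell (median 0.12). The list also holds Fcer1g, counted among the rises in both comparisons, and Hcst, which was not called. These encode adaptors parallel to DAP12 and not downstream of it. Lcp2, which encodes the scaffold SLP-76, rose by 1.18 and the exchange factor gene Vav1 by 0.62. Syk, the kinase that docks on the ITAM, rose by 0.58 (limma adjusted p = 0.000337), and Fcer1g, the other ITAM adaptor of macrophages, rose by 0.78 (limma adjusted p = 0.000439) where Tyrobp fell; both were named after their values were seen. Lat2, which encodes the linker NTAL, fell by 1.00 on the log2 scale (69.7 ± 7.14 CPM under PD-L1 antibody, 140.5 ± 10.5 CPM under isotype antibody). The falls against isotype antibody numbered 3 without PD-L1 antibody 1 or without isotype 5, and 11 when libraries were scaled by total counts. Against untreated wells they numbered 10 under that scaling.

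Among 12 genes listed as inhibitors of ITAM signalling, 4 rose and 1, Cblb (-0.38), fell against isotype antibody (median 0.29). Against untreated wells 6 rose and 0 fell (median 0.25). The sialic acid-binding receptor gene Cd33 was at 35.8 ± 6.36 CPM with the PD-L1 antibody, 14.7 ± 0.788 CPM with isotype antibody and 9.95 ± 1.29 CPM in untreated wells. Whether mouse CD33 inhibits ITAM signals in these cells was not tested. Ubash3b, which encodes a phosphatase acting on Syk, rose by 0.95, and Ptpn6, the gene of the phosphatase SHP-1, by 0.37. Dok3, an adaptor gene that restrains DAP12 signals, rose by 0.39 against isotype antibody (limma adjusted p = 0.0315) but overlapped untreated wells (limma adjusted p = 0.553). The rises against isotype antibody numbered 7 without untreated 7, and 2 when scaled by total counts, where 3 rose against untreated wells. The single fall was lost without PD-L1 antibody 1 or 3, isotype 4 or 6, or untreated 8, and with DESeq2 size factors, and 1 gene fell against untreated wells when scaled by total counts.

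TREM2 protein is cut from the cell surface by ADAM proteases, and its stub is cleared by gamma-secretase. Of 12 genes for these enzymes and their regulators 5 rose and 3 fell against isotype antibody (median 0.01), and 5 rose and 4 fell against untreated wells (median -0.10). Rhbdf2, which encodes iRhom2, the partner that brings ADAM17 to the surface, averaged 186 ± 30.5 CPM under PD-L1 antibody and 81.2 ± 3.34 CPM with isotype antibody. Aph1c and Aph1b, alternative gamma-secretase subunits encoded by similar copies that can share reads, fell by 1.70 and 1.18. The falls numbered 5 without untreated 7 or with upper-quartile scaling. With total-count scaling 3 rose and 6 fell against isotype antibody, and 3 rose against untreated wells with either of these scalings.

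Of 10 tested genes for reported ligands and co-receptors of TREM1 and TREM2, 1 rose and 6 fell against isotype antibody (median -0.49), and 2 rose and 3 fell against untreated wells (median -0.38). App, the amyloid precursor gene whose peptide product binds TREM2, was the rise, with 1063 ± 62.9 CPM under PD-L1 antibody and 499.7 ± 17.8 CPM under isotype antibody. Lgals3, the galectin-3 gene, fell by 0.73, and Cirbp, whose extracellular protein binds TREM1, fell by 0.43. Clu, the clusterin gene, fell by 0.89 against isotype antibody (limma adjusted p = 0.0174) and missed the threshold against untreated wells (limma adjusted p = 0.0988). The falls numbered 2 without PD-L1 antibody 1 or without isotype 4, and the rises 2 without untreated 7. Against untreated wells 1 gene rose without PD-L1 antibody 3, untreated 8 or untreated 9, and with total-count scaling.

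The genes called TREM2-dependent here were listed for microglia or lipid-associated macrophages of mice, and whether each needs Trem2 was not tested. Of 23, 15 fell and 1 rose against isotype antibody (median -0.65), where 18.2% of all genes fell and 18.2% rose. Against untreated wells 13 fell and 2 rose (median -0.51), where 20.5% of all genes fell and 22.0% rose. The lectin gene Clec7a had 86.2 to 112 CPM in PD-L1 antibody libraries, against 378 to 418 CPM with isotype antibody and 349 to 385 CPM in untreated wells. The lipase genes Lpl and Lipa fell by 1.92 and 1.74. Cst7, the cystatin F gene, rose in both comparisons, with 23.7 ± 5.21 CPM with the PD-L1 antibody, against 4.93 ± 1.57 CPM with isotype antibody and 4.08 ± 0.38 CPM in untreated wells (log2 fold change 2.07 against isotype antibody, limma adjusted p = 2.14e-05). Csf1, the M-CSF gene, named after its values were seen, was the other rise against untreated wells (0.92, limma adjusted p = 0.0211), and gave 0.51 against isotype antibody (limma adjusted p = 0.186). Apoe and Lgals3 belong to this list and to the ligands. The rises numbered 2 against isotype antibody without untreated 7. Against untreated wells they numbered 1 without PD-L1 antibody 1 or 3, without untreated 8 or 9, and with total-count scaling.

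Cytokine and chemokine genes that TREM1 is known to amplify gave the largest median, 2.83 against isotype antibody, with 8 of 10 rising and 0 falling. Against untreated wells 7 rose and 0 fell (median 2.77). Ccl2, the monocyte-attracting chemokine gene, was at 169 ± 35.2 CPM with the PD-L1 antibody, 6.91 ± 1.67 CPM with isotype antibody and 8.86 ± 3.35 CPM in untreated wells (log2 fold changes 4.43 and 4.14). Il1a, Il1b and Cxcl1 were the other 3 with the lowest p, while Ccl3 and Il12b were not called (limma adjusted p = 0.713 and 0.749). Between isotype antibody and untreated wells limma called 0 members of the 7 lists. Without untreated 7 that comparison called 5 rises and 4 falls among the adaptors and kinases, 5 rises among the inhibitors, and 3 rises and 3 falls among the ligands. It also called 2 rises and 4 falls among the TREM2-dependent genes, and 1 fall each among the sheddases and the cytokines. In that fit 1337 of all 13988 genes tested were called higher and 958 lower. Whether a list differed from other genes was not tested.

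**Figure D5:**
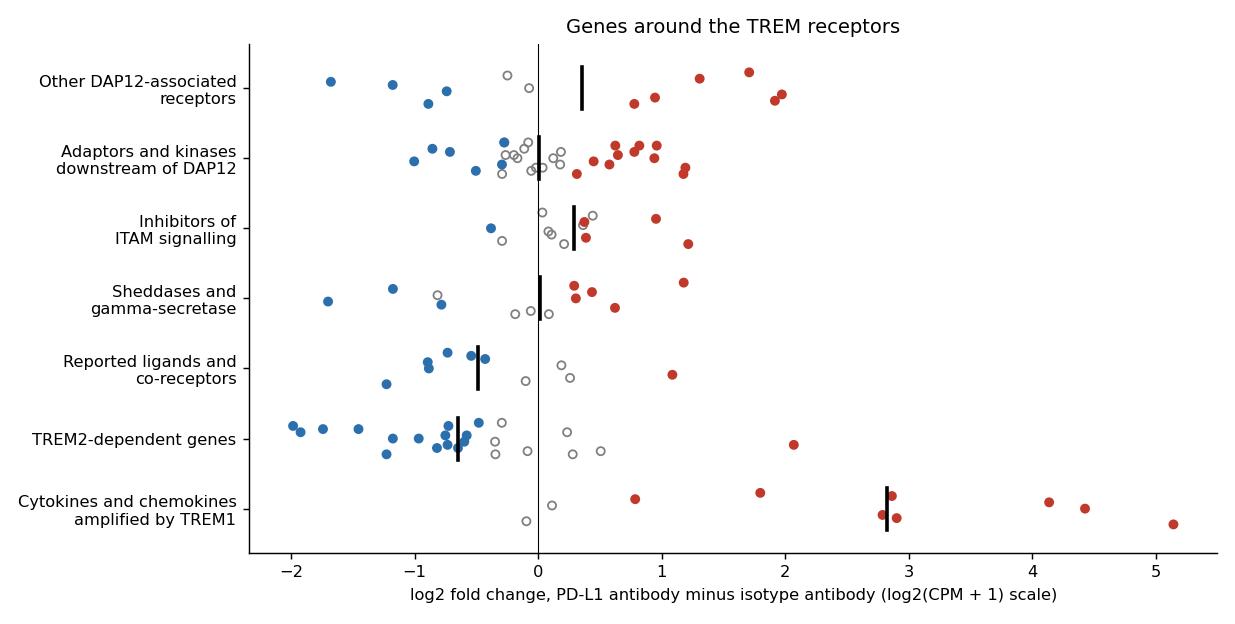
Log2 fold change of PD-L1 antibody minus isotype antibody (x axis, log2(CPM + 1) scale) for tested members of the 7 lists (rows). Red points rose, blue points fell and open points missed the adjusted p of 0.05 in limma; bars are medians, from -0.65 for TREM2-dependent genes to 2.83 for TREM1-amplified cytokines.

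Because Trem1 and Trem3 are also expressed by neutrophils and monocytes, markers of those cells are given beside them. The 13 neutrophil and granulocyte precursor markers, all listed above 0, summed to 573 to 742 CPM with the PD-L1 antibody, 864 to 1467 CPM with isotype antibody and 687 to 860 CPM in untreated wells. Ly6g was under 1 CPM in every library, and Retnlg and Elane in every PD-L1 antibody library. Csf3r was the highest with the PD-L1 antibody (142 to 163 CPM, against 105 to 112 CPM with isotype antibody), whereas Ltf was lowest there (38.1 to 54.5 CPM, against 156 to 262 CPM). Ngp was also lower (67.85 to 103.5 CPM, against 208.3 to 401.4 CPM with isotype antibody). Camp, Mpo, Elane and Retnlg likewise lay lower in every PD-L1 antibody library than in any isotype antibody library. Ranges of the remaining markers overlapped between the antibodies. The 5 monocyte markers, none under 1 CPM, summed to 479 to 673 CPM with the PD-L1 antibody, 372.5 to 489 CPM with isotype antibody and 239 to 371 CPM in untreated wells. Vcan carried much of that, at 210 to 394 CPM with the PD-L1 antibody, 14.7 to 41.1 CPM with isotype antibody and 5.96 to 28.8 CPM in untreated wells, while Ccr2 was lower with the PD-L1 antibody (81.6 to 112 CPM) than with isotype antibody (192 to 292 CPM). The part of the monocyte markers in the rise of Trem1 and Trem3 was not tested.

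Patterns most like each member over the 9 libraries were sought among 9501 genes of at least 5 CPM on average. Placeholder and pseudogene symbols, such as those ending in Rik, were left out, so B430306N03Rik was not searched. Likeness was the mean absolute difference of the deviations on the log2 scale. For Trem1 they were Spred2 (0.117), Cd33 (0.126) and Zeb1 (0.127). For Trem2 they were Aph1c (0.0926), Bhlhe41 (0.0959) and Zfp395 (0.0995), and Bhlhe41 averaged 63.5 ± 0.561 CPM under PD-L1 antibody, 189.5 ± 11.1 CPM with isotype antibody and 221 ± 6.68 CPM in untreated wells. The nearest to Trem3 was its neighbour Trem1 (0.147), followed by Hdc and Spred2 (0.160 each). Treml4 was nearest to Hk2 (0.0992), Rab32 (0.102) and Tnfrsf23 (0.105). Treml2 was nearest to Atp2b4 (0.0947), Ccl22 (0.125) and Helz2 (0.129), which also spread widely in untreated wells (Ccl22 181 ± 97.6 CPM, Helz2 345 ± 203 CPM). Tyrobp, which deviated least, was nearest to Traf3ip3 (0.0212), Hsd17b4 (0.0285) and Ip6k1 (0.0314).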

How the data were processed

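Oligo(dT)-selected RNA was sequenced in read pairs of 150 bases, per the labels' protocols. The submitters' processing notes name Partek and STAR, without versions. Per RefSeq transcript and library, the deposited read counts cover the whole genomic span (of 4738 isoform sets with 1 span, 4611 repeated the same count), so they served only as an alternative. Average coverage (signal per exonic base), exon length and the percent of bases covered are given per the file headers. The genome build is not given in the sources used here, and positions were matched to GRCm38.

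Exonic read equivalents were coverage times exon length divided by 150, with 1 transcript per symbol. Of 22376 symbols 13741 passed edgeR's filterByExpr. TMM-scaled log2(CPM + 1) of all 9 libraries went into 1 limma fit (a mean for each group, trended variance), two-sided, with Benjamini-Hochberg adjustment over 13741 genes and a threshold of 0.05. Ratios between genes were tested by exact permutation. Without molecular identifiers, PCR copies count as reads, and depth limits low genes most.

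Members, lists and tests were chosen with earlier results of these data known. The named genes were the 6 members, the 4 of each list with the lowest p against isotype antibody, the 3 genes most like each member, and flanking genes. Of the genes this rule named, 2 are not reported here. Of the 12 marker lists those bearing on a member are given. Summed, B cell markers came to at most 10.3 CPM, mast cell and basophil markers to 38.3 CPM, stromal markers to 50.1 CPM and osteoclast markers to 154 CPM. Dendritic cell markers came to at most 529 CPM, in an isotype antibody library, of which Ccr7 at most 502. Every other dendritic cell marker stayed at 18.2 CPM (Flt3, untreated) or lower. Plasmacytoid dendritic cell markers came to at most 1066 CPM, in a PD-L1 antibody library, of which Bst2 at most 974. Siglech and Ccr9 were lower in every PD-L1 antibody library than in any library of the other groups. Alternatives were other scalings, filters, pseudocounts, transcripts, tools (edgeR and DESeq2 on deposited counts, limma-voom), 2 groups only, the exclusion of single libraries, and a threshold of 0.01. The fit was also tested on simulated data, with the same spread set for all genes. Of 50 genes changed by each amount, it called 8% right at 1.25-fold, 78% at 1.5-fold, 90% at 2-fold and 98% at 4-fold. False calls numbered 10, with 13602 genes tested. Small changes were thus mostly missed, and these shares need not hold for the real spread. Software was R 4.3.3, limma 3.58.1, edgeR 4.0.16, DESeq2 1.42.0 and Python 3.11.15.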

Additional observations from a re-analysis of the deposited data

How the results depend on the processing

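All 6 genes kept their direction and their call in both PD-L1 antibody comparisons under every scaling, filter, pseudocount, tool and left-out library, except that Treml2 against isotype antibody (0.98, limma adjusted p = 0.0102) missed a threshold of 0.01. Leaving out 1 library gave log2 fold changes against isotype antibody of 1.03 to 1.31 for Trem1, -1.71 to -1.59 for Trem2, 1.27 to 1.63 for Trem3, 0.88 to 1.09 for Treml2, 1.17 to 1.38 for Treml4 and -0.43 to -0.36 for Tyrobp. The highest adjusted p in limma was 0.0462, for Treml2. Under total-count scaling the median over all genes was -0.16 against isotype antibody and -0.13 against untreated wells. It moved the split of calls from 2495 higher and 2501 lower to 1565 and 4143 against isotype antibody, and from 3017 and 2814 to 1940 and 4088 against untreated wells, where upper-quartile scaling gave 2403 and 3433. A threshold of 0.01 left 3228 and 3821 genes in the PD-L1 antibody comparisons. The number called ran from 3774 to 6030 and from 4524 to 6766 with 1 library left out.

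Between isotype antibody and untreated wells limma called 1 gene (Fosb), with 1748 at an unadjusted p under 0.05. There were 2 with total counts, 2 by edgeR and 156 by DESeq2 on deposited counts, and 0 with limma-voom, with 2 groups only or at 0.01. Without 1 library the number ran from 0 to 2295, the last without untreated 7. Treml2 ran from 0.28 to 0.88 there, and passed without untreated 7. Tyrobp turned to 0.0103 with total counts (limma adjusted p = 0.966) and ran from -0.0502 to 0.0256 (the highest without isotype 6, and 0.0035 without untreated 9). The cause was not tested. No paired analysis was possible because the groups share no replicate numbers.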
